A study of Homo sapiens with 8 samples.

Results

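The genes described here are those of the major histocompatibility complex class II pathway and CIITA, the transactivator that switches the pathway on. There are 10 of them among 19775 genes with a probe set of a single annotated symbol: HLA-DRA, HLA-DPA1, HLA-DPB1, HLA-DQB1, CD74, HLA-DMA, HLA-DMB, HLA-DOA, HLA-DOB and CIITA. They were chosen by symbol, each gene was read from the probe set with the highest mean over 8 arrays, and all 10 passed the filter on dim genes, which kept 11678 genes. All RNA came from the RL line, a long-established human B cell lymphoma culture labelled t(14,18)+, the translocation that places BCL2 beside an immunoglobulin locus. Its cells had grown for 14 days as multicellular aggregates, and every array carries this genotype and culture. Cells dull for pyronin Y, an RNA dye, were sorted as quiescent (4 arrays), and bright cells as cycling (4 arrays). Whether the 4 samples of a fraction were grown separately is not stated in the labels, and p-values therefore cover the spread among samples that may differ by technical steps alone.

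Class II molecules carry peptides from endocytosed proteins to the surface of B cells, macrophages and dendritic cells, where CD4 T cells read them. An alpha and a beta chain (DR, DP or DQ) assemble in the endoplasmic reticulum on the invariant chain CD74, which blocks the groove and steers the complex to endosomes. There proteases trim CD74, HLA-DM exchanges its last fragment for a peptide, and HLA-DO, found mainly in B cells, inhibits HLA-DM. CIITA does not bind DNA itself. It docks on factors bound to the X box (the RFX complex and CREB) and the Y box (NF-Y) of class II, CD74 and HLA-DM promoters.

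Letters of this promoter layout were looked for in the RefSeq promoter windows (GRCh38.p14, 250 bases before to 50 after each start), which held 8 of the 10 genes in 9 windows. The Y box core ATTGG, searched on both strands, lay in windows of 7 of the 8 genes and in 34.6% of all 35116 windows. The stretches below run 5′ to 3′ on the gene's strand around one core each and show how the X-type and Y-type letters line up across subunits. Capitals mark the Y box core ATTGG and the letters of an X-type pattern (CC, 1 base of any kind, AG, 6 of any kind, then AT) written after these stretches had been seen.
HLA-DMA, chr6:32953166-32953218, minus strand: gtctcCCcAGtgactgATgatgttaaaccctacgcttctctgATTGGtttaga
HLA-DOA, chr6:33009648-33009700, minus strand: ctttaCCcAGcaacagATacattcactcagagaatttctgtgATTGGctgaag
HLA-DOB, chr6:32817090-32817142, minus strand: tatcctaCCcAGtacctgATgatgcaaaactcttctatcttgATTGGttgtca
HLA-DPB1, chr6:33075849-33075901, plus strand: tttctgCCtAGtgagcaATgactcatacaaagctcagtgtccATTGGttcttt
HLA-DQB1, chr6:32666735-32666787, minus strand: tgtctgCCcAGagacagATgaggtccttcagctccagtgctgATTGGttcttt
In these 5 genes the pattern began 35 to 37 bases ahead of the core. Such a pair with starts 25 to 50 bases apart, on either strand, occurred in 5 of the 9 windows and in 0.236% of all windows. As the pattern was written after these stretches had been seen, their matches were fixed in advance and do not test a shared layout. The windows of CD74, HLA-DMB and HLA-DPA1 held no such pair. The stricter X start CCTAG, searched on both strands, lay in windows of 3 of the 8 genes and in 31.7% of all windows, and paired with ATTGG at that spacing in HLA-DPB1 alone of these genes (0.931% of all windows). A match is a description of letters, not a binding site.

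All 10 genes lay above the filter, an intensity of about 83.3, on every array of both fractions, and the size of their difference depended on how the arrays were scaled. With array medians centred, 1 of the 10 genes, CD74, fell in quiescent cells and 0 rose, at a limma adjusted p under 0.05. The count at an unadjusted p under 0.05 was also 1 lower and 0 higher. Of all 11678 genes tested, 35.3% were called in that setting, 32.5% lower and 2.8% higher. With the scaling as deposited, 4 rose (HLA-DQB1, HLA-DMB, HLA-DOA and CIITA) and 0 fell, against 12.2% and 15.4% of all genes (27.7% in either direction). After quantile normalization 5 rose (HLA-DRA, HLA-DPB1, HLA-DQB1, HLA-DMB and HLA-DOA) and 0 fell, against 10.5% and 16.3% (26.9% in either direction). The scaling moved the share of higher among all calls from 7.93% centred to 44.2% as deposited and 39.2% after quantile normalization. At an unadjusted p under 0.05, 6 were higher and 0 lower as deposited, and 7 and 0 after quantile normalization.

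The median log2 difference of the 10 genes, quiescent minus cycling, was −0.087 with centred arrays, 0.33 as deposited and 0.42 after quantile normalization. All genes tested had medians of −0.33, 0.081 and −0.037 in the same settings, and the centred differences are the deposited ones less 0.41 for every gene. Relative to those medians the 10 genes lay at 0.25, 0.25 and 0.46, with 9 of 10 above the median of all genes in each setting. Every difference is a share of the RNA on the array, not an amount per cell, and fewer cells of a type and less RNA per cell cannot be told apart in bulk samples. Quiescent cells were sorted as dull for an RNA dye, and 30 ng of total RNA per sample was amplified in both fractions. A higher share on quiescent arrays can therefore go with an equal or lower amount per cell, which was not measured. On a log2 scale the ACTB 3′ control probe set over its 5′ partner, a measure of RNA integrity, was also higher on quiescent arrays, at 2.57 ± 0.18 against 2.02 ± 0.20 (SD, n = 4 each, two-sided exact permutation p = 0.0286, the smallest that 70 assignments allow). Its part in the differences was not tested.

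**Figure D1:**
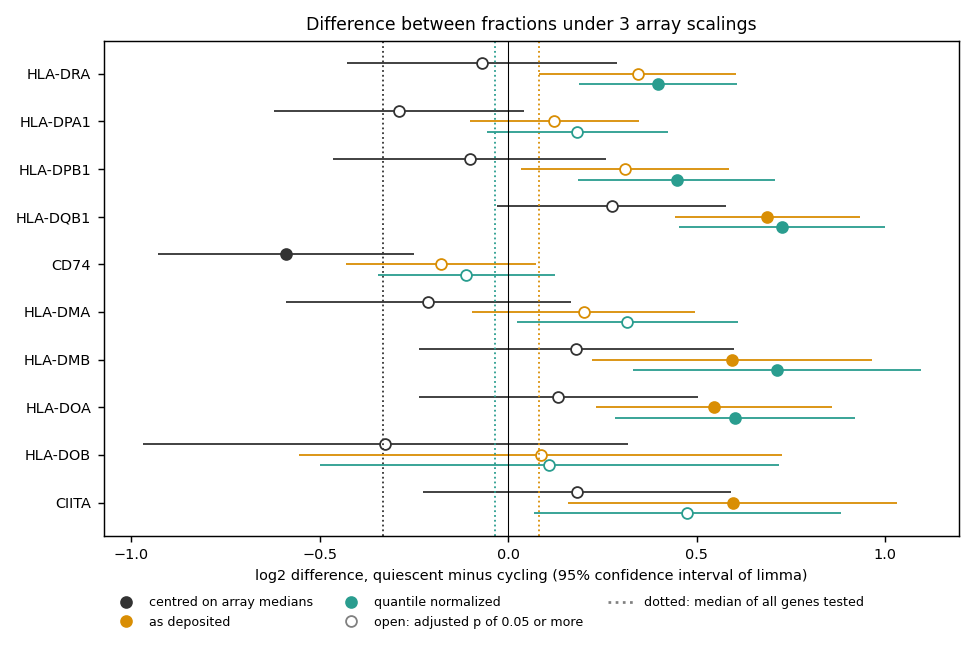
Log2 difference (quiescent minus cycling, horizontal axis) of the 10 genes under 3 array scalings, as points with 95% confidence intervals of limma from 4 arrays a group; filled points have an adjusted p under 0.05 and dotted lines mark the median of all 11678 genes tested. The centred values lie lowest, with CD74 at −0.59 as their 1 filled point, and HLA-DQB1 reaches 0.69 as deposited.

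Of the 4 peptide-presenting chains among the 10 genes, HLA-DQB1 had the highest difference under all 3 scalings and HLA-DPA1 the lowest. HLA-DQB1, a beta chain, had intensities of 16082, 23896, 20428 and 19318 on the cycling arrays of samples 1 to 4 and 31248, 29296, 32274 and 34470.5 on the quiescent arrays. As deposited, every quiescent array exceeded every cycling array, which held for 2 of the 10 genes (HLA-DQB1 and HLA-DOA) and 13.3% of all genes. Means were 19931 ± 3223 (SD, n = 4) on cycling and 31822 ± 2155 (SD, n = 4) on quiescent arrays. Its log2 difference was 0.27 centred (SE 0.14, limma adjusted p = 0.156), 0.69 as deposited (adjusted p = 8.28e-04) and 0.73 after quantile normalization (adjusted p = 0.00118). With 32 added before log2 it passed in the centred values too (0.38, adjusted p = 0.0302), and as deposited it passed without each of the 8 arrays in turn. All 6 of its probe sets past the filter were higher in quiescent cells when centred (0.02 to 0.38, none called) and as deposited (0.43 to 0.80, all 6 called). Class II beta chain genes are close paralogs, so how far these probe sets share signal with near copies is uncertain.

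HLA-DRA, the nearly invariant alpha chain that pairs with all DR beta chains, measured 18302, 19166, 22072 and 20166 (cycling) and 28664, 19531, 26007 and 27710.4 (quiescent). Quiescent samples 1, 3 and 4 lay above all cycling arrays, whereas quiescent sample 2 lay among them. It averaged 19927 ± 1620.3 (SD, n = 4) on cycling and 25478 ± 4114 (SD, n = 4) on quiescent arrays. The difference was −0.070 centred (SE 0.17, limma adjusted p = 0.791), 0.34 as deposited (adjusted p = 0.0502) and 0.40 after quantile normalization (adjusted p = 0.0091). Without quiescent sample 2 it passed as deposited (0.47, adjusted p = 0.00321). Its other probe set had −0.11 centred and 0.30 as deposited and was not called in either.

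HLA-DPB1, the DP beta chain, measured 8862, 10044, 10640.3 and 10199 (cycling) and 15171, 10094, 11467 and 12981 (quiescent). Quiescent sample 2 again fell within the cycling range. Its difference was −0.10 centred (SE 0.17, limma adjusted p = 0.689), 0.31 as deposited (adjusted p = 0.0884) and 0.45 after quantile normalization (adjusted p = 0.0157), and as deposited it passed when quiescent sample 2 was left out (0.40, adjusted p = 0.0257). Its other probe set, far dimmer (means of 119 and 207), had 0.45 centred and 0.86 as deposited and was called in neither. HLA-DPA1, the alpha chain that pairs with HLA-DPB1, measured 17594, 21742, 21793 and 24594 (cycling) and 23656, 22444, 24309 and 22278 (quiescent), with the groups overlapping. The difference was −0.29 centred (SE 0.16, limma adjusted p = 0.168), 0.12 as deposited (adjusted p = 0.407) and 0.18 after quantile normalization (adjusted p = 0.258). Of its 2 dimmer probe sets, one was called lower when centred (−0.74, adjusted p among all probe sets with limma 0.0109) and not as deposited (−0.33, adjusted p = 0.144). The other was called in neither setting.

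**Figure D2:**
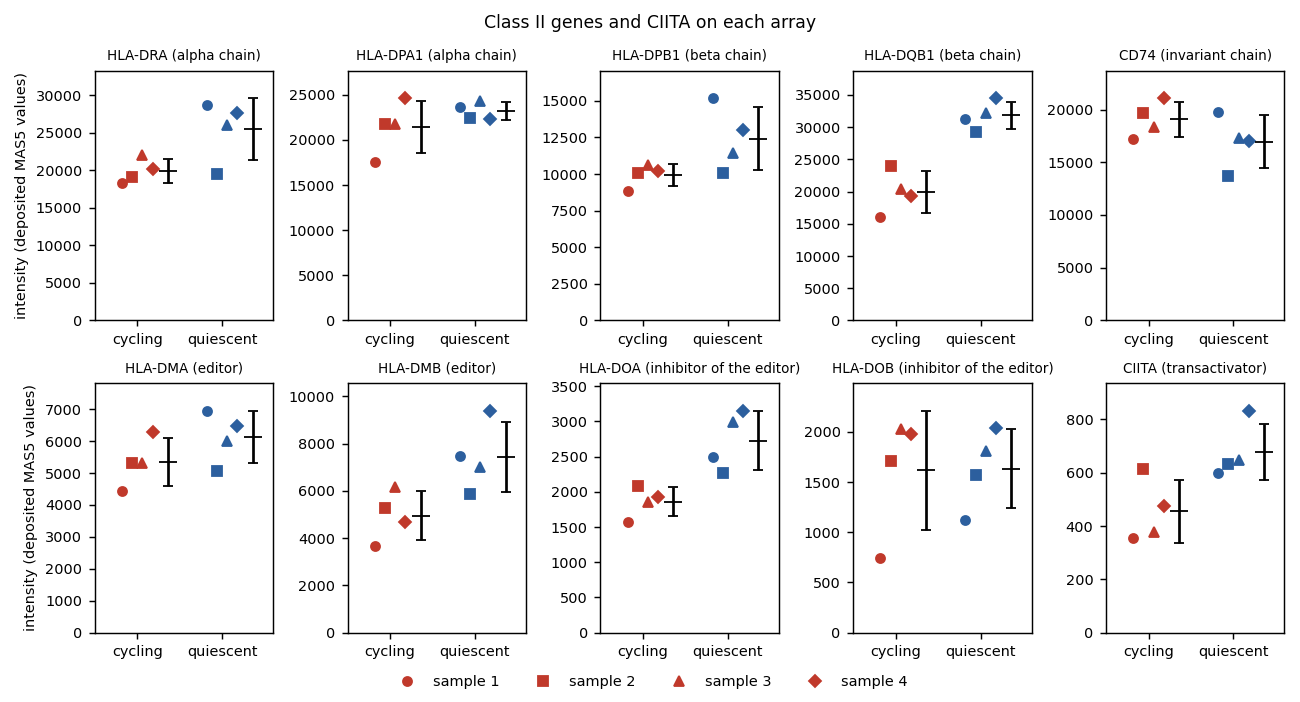
Deposited MAS5 intensity (vertical axis, linear from 0, own scale for each gene) of the 10 genes on 4 cycling (red) and 4 quiescent (blue) arrays; marker shapes give the sample number and black bars the mean ± SD. HLA-DQB1 and HLA-DOA separate without overlap, HLA-DRA and HLA-DPB1 have quiescent sample 2 within the cycling range, and cycling sample 1 is the lowest cycling array in all 10 panels.

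CD74, the invariant chain, was the gene of the 10 with the lowest difference under all 3 scalings. It measured 17197, 19715, 18297 and 21058 (cycling) and 19799, 13669, 17298 and 17014 (quiescent). The quiescent mean was 16945 ± 2517 against 19067 ± 1681 (SD, n = 4 each), with overlap in the deposited values and none in the centred ones, where it was the 1 gene of the 10 lower without overlap (28.3% of all genes) and 0 were higher without overlap (3.04%). The difference was −0.59 centred (SE 0.16, limma adjusted p = 0.00828), −0.18 as deposited (adjusted p = 0.277) and −0.11 after quantile normalization (adjusted p = 0.495). In the centred values it stayed called without each array in turn, with adjusted p from 0.00219 to 0.0427. The 2 dimmer CD74 probe sets did not follow the brightest: they had centred differences of −0.17 and −0.06, neither called. The centred fall rests on 1 of 3 probe sets.

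HLA-DM edits the bound peptide, and 1 of its chains rose as deposited. HLA-DMB, the beta chain of the editor, measured 3666, 5268, 6149 and 4693 (cycling) and 7469, 5884, 6991 and 9392 (quiescent). Cycling sample 3 exceeded the lowest quiescent array, so the groups overlapped. It averaged 4944 ± 1041 (SD, n = 4) on cycling and 7434 ± 1464 (SD, n = 4) on quiescent arrays. Its difference was 0.18 centred (SE 0.20, limma adjusted p = 0.523), 0.59 as deposited (adjusted p = 0.0215) and 0.71 after quantile normalization (adjusted p = 0.00989). As deposited it did not pass without cycling sample 1 or 4 or quiescent sample 4 (highest adjusted p = 0.0741). HLA-DMA, the alpha chain of the same heterodimer, measured 4431, 5325, 5311 and 6284 (cycling) and 6954, 5070.2, 6016 and 6470.3 (quiescent), and the difference was −0.21 centred (SE 0.18, limma adjusted p = 0.393), 0.20 as deposited (adjusted p = 0.298) and 0.32 after quantile normalization (adjusted p = 0.105). Both DM chains had a single probe set.

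HLA-DOA and HLA-DOB encode the chains of the inhibitor of HLA-DM. HLA-DOA measured 1577, 2078, 1858 and 1928 (cycling) and 2488, 2268, 2991 and 3152 (quiescent), without overlap as deposited. It averaged 1860.5 ± 209.9 (SD, n = 4) on cycling and 2725 ± 416 (SD, n = 4) on quiescent arrays. Its difference was 0.13 centred (SE 0.18, limma adjusted p = 0.605), 0.54 as deposited (adjusted p = 0.0139) and 0.60 after quantile normalization (adjusted p = 0.00907). As deposited it did not pass without quiescent sample 3 or 4 (highest adjusted p = 0.0508). Its dimmer probe set past the filter had 0.49 centred (not called) and 0.90 as deposited (called). HLA-DOB measured 747, 1711, 2026 and 1978 (cycling) and 1122, 1569, 1809 and 2040.0 (quiescent). Sample 1 was the lowest in each fraction, and the spread exceeded any difference between fractions, which was −0.33 centred (SE 0.30, limma adjusted p = 0.438), 0.086 as deposited (adjusted p = 0.854) and 0.11 after quantile normalization (adjusted p = 0.817). Without cycling sample 1 the centred difference passed as lower (−0.65, adjusted p = 0.033). The dimmer HLA-DOB probe set had −0.18 centred and 0.24 as deposited and was called in neither.

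CIITA, the master regulator, measured 356, 613, 377 and 477 (cycling) and 599.8, 631, 647 and 833 (quiescent). Cycling sample 2 lay inside the quiescent range. It averaged 456 ± 118 (SD, n = 4) on cycling and 678 ± 105 (SD, n = 4) on quiescent arrays. The difference was 0.18 centred (SE 0.19, limma adjusted p = 0.507), 0.59 as deposited (adjusted p = 0.0432) and 0.47 after quantile normalization (adjusted p = 0.0817). As deposited it passed in 2 of 8 fits that each left out an array, those without cycling sample 2 and without quiescent sample 1 (adjusted p from 0.012 to 0.129 over the 8). All 3 CIITA probe sets were higher in quiescent cells when centred (0.18 to 0.29, none called) and as deposited (0.59 to 0.70, 2 called).

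**Figure D3:**
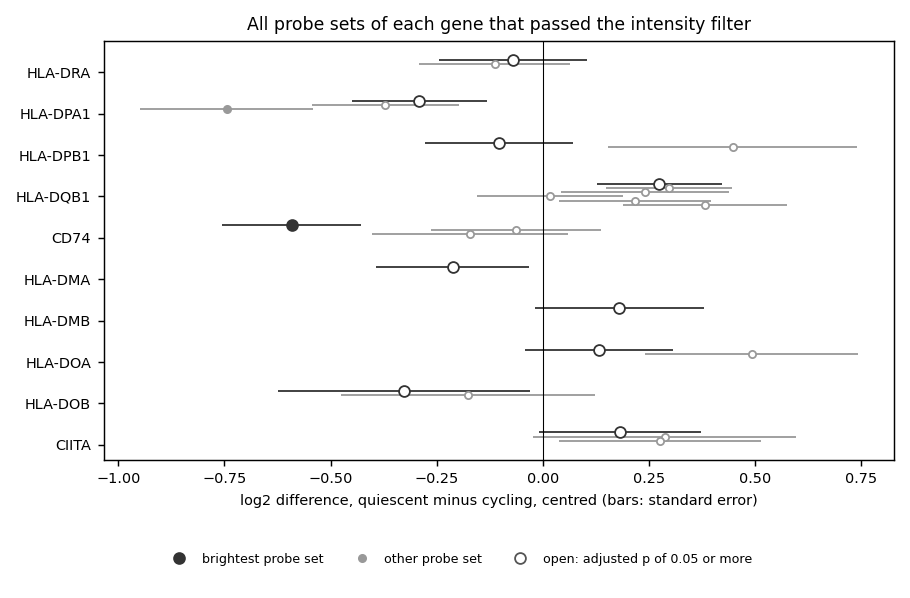
Centred log2 difference (quiescent minus cycling, horizontal axis) of the 25 probe sets of the 10 genes that passed the filter, with standard errors from 4 arrays a group; large dark points are the brightest probe set of a gene and filled points have an adjusted p under 0.05 over all probe sets. The HLA-DQB1, HLA-DMB, HLA-DOA and CIITA points and 1 of 2 HLA-DPB1 points lie above 0. The filled points are the brightest CD74 probe set and 1 dim HLA-DPA1 probe set.

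Over all 29 probe sets of these genes 25 passed the filter. Centred, 2 of them were called lower and 0 higher, against 26.5% and 3.39% of 22259 probe sets tested with limma (29.9% in either direction). As deposited, 11 were called higher and 0 lower, against 14.3% and 12% (26.3% in either direction). These 11 belong to HLA-DQB1 (6), HLA-DOA (2), CIITA (2) and HLA-DMB (1).

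A ratio between 2 genes on the same array is the same whether arrays are centred or left as deposited, though quantile normalization can change it, and 6 were tested by two-sided exact permutation over 70 assignments, where p cannot go below 0.0286. None passed after Benjamini-Hochberg adjustment over the 6. The log2 ratio of CD74 to HLA-DRA was −0.09, 0.04, −0.27 and 0.06 on cycling and −0.53, −0.51, −0.59 and −0.70 on quiescent arrays. Every quiescent array lay below every cycling array. The difference was −0.52 (exact permutation p = 0.0286, adjusted 0.114, n = 4 each). With every pair of CD74 and HLA-DRA probe sets, chosen as a check after the data had been seen, it ran from −0.52 to 0.05, and 2 of 6 pairs, both with the brightest CD74 probe set, reached the smallest p.

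The ratio of HLA-DMB to HLA-DMA was higher in quiescent cells by 0.39 (−0.12 ± 0.28 against 0.27 ± 0.19, SD, n = 4 each, exact permutation p = 0.0571, adjusted 0.114). HLA-DOA to HLA-DMA differed by 0.34 (−1.52 ± 0.14 against −1.17 ± 0.22, exact permutation p = 0.0571, adjusted 0.114). HLA-DOB to HLA-DMB differed by −0.51 (exact permutation p = 0.171, adjusted 0.24), and HLA-DOB to HLA-DOA by −0.46 (exact permutation p = 0.2, adjusted 0.24). CIITA to HLA-DRA differed by 0.25 (exact permutation p = 0.314), and by 0.078 after quantile normalization (exact permutation p = 0.629).

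**Figure D4:**
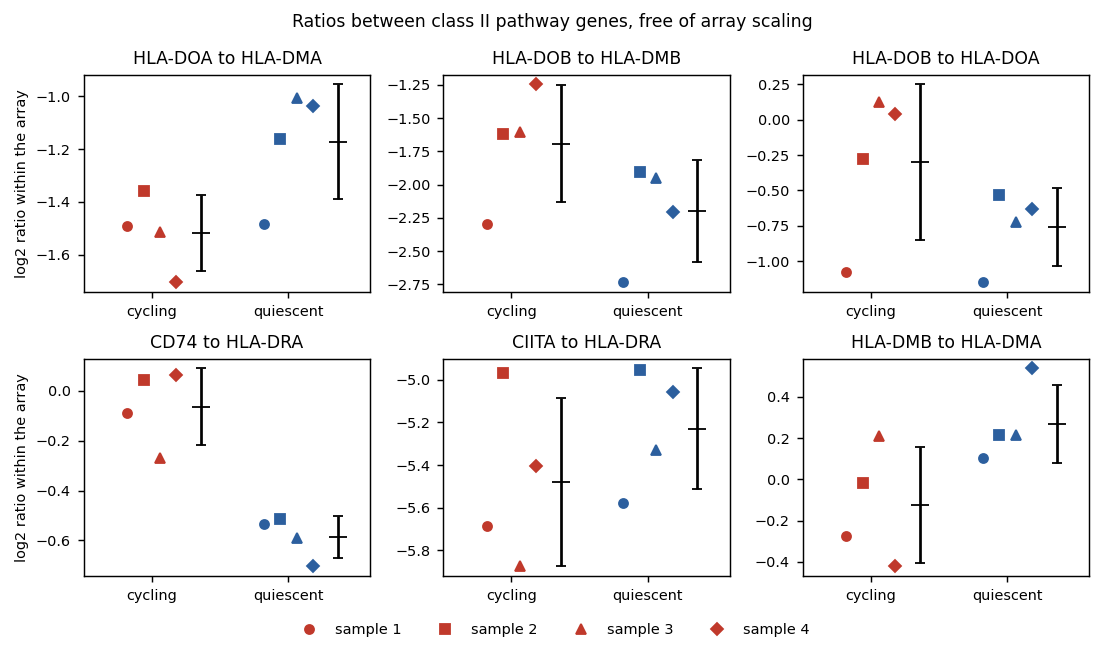
Log2 ratio between 2 genes within each array (vertical axis, own scale for each panel) on 4 cycling (red) and 4 quiescent (blue) arrays, with sample numbers by marker and mean ± SD in black. The CD74 to HLA-DRA ratio separates the fractions, the quiescent arrays lying between −0.70 and −0.51, and the other 5 ratios overlap.

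Samples differed among themselves as well. As deposited, cycling sample 1 was the lowest cycling array for all 10 genes and the lowest of all 8 arrays for 9, the exception being CD74. When centred it was the lowest of 8 for 5 genes and quiescent sample 2 for 4. The pairwise correlations of the 10 genes over the 8 centred arrays ran from −0.42 to 0.93, with a median of 0.45 over 45 pairs, and a median of 0.64 once group means were removed. These genes share arrays and scaling, so the correlations are descriptive. CIITA followed the mean profile of the 10 genes least, at r = 0.29 over 8 arrays, and HLA-DRA and HLA-DMA followed it most, at 0.85 and 0.84, although each gene is part of that mean.

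The genes outside the list whose centred profile was most like that mean over 8 arrays were EFCAB10, ICAM1, HSH2D, OAS2 and CD72 (Pearson r from 0.93 to 0.96). ICAM1 encodes an adhesion molecule, OAS2 an interferon-induced antiviral enzyme and CD72 a B cell co-receptor. With group means removed they were IL16, SIMC1P1, HSH2D, CD72 and NLRP11 (r from 0.97 to 0.99). Picked as the extremes of 11678 genes over 8 arrays, these values carry no test. Of the 8 genes, NLRP11 was called between fractions (−0.89, limma adjusted p = 0.0274).

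Of the factors that bind class II promoters, 4 of 7 measured members fell in quiescent cells and 0 rose (none also at an unadjusted p under 0.05), with limma and centred values, where 32.5% of all genes were lower and 2.8% higher. RFX5, RFXAP and NFYC also fell as deposited and after quantile normalization. The list median was −0.61, against −0.33 for all genes. RFX5, the DNA-binding subunit of the RFX complex, measured 1789.9, 1946, 1865 and 2221 (cycling) and 1345, 1395, 1420.3 and 1346 (quiescent). No quiescent array reached the cycling range. The difference was −0.91 centred (SE 0.17, limma adjusted p = 5.49e-04), −0.50 as deposited (adjusted p = 0.00906) and −0.47 after quantile normalization (adjusted p = 0.0126), and its other probe set was called lower too (−1.08, adjusted p over all probe sets 0.0024). RFXAP, another subunit, measured 701, 798, 1005 and 1060.3 (cycling) and 507, 709, 621 and 606 (quiescent) and differed by −0.95 (SE 0.21, limma adjusted p = 0.00232), though its dimmer probe set was not called (−0.44). As deposited it passed in 3 of the 8 fits that each left out an array, those without cycling sample 1 or 2 or quiescent sample 2. RFXANK, the third subunit, was not called (−0.35, adjusted p = 0.179).

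NFYC, a subunit of NF-Y, fell by 0.79 on the log2 scale (adjusted p = 0.00198) and by 0.37 as deposited (adjusted p = 0.0415), where it did not pass when any 1 array was left out (adjusted p from 0.0516 to 0.133). Of its other probe sets 3 were called lower centred (−0.79 to −0.70), and 1 went the other way, at 0.87 centred (not called) and 1.29 as deposited (called higher, adjusted p = 0.0495). NFYB fell by 0.61 when centred (adjusted p = 0.0232) and did not pass as deposited. Without cycling sample 1, 3 or 4 or quiescent sample 4 it did not pass centred either. NFYA (−0.18) and CREB1 (−0.066) were not called. RFX5, RFXAP and NFYC were called lower under all 3 scalings. Of the 10 class II pathway genes, CD74 was called lower in the centred values only, where 32.5% of all genes were. No other of the 10 was called lower under any of the 3 scalings. How the factors and these genes relate was not tested.

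Of 18 tested factors upstream of CIITA, 1 rose and 4 fell centred (2.8% and 32.5% of all genes), while 5 rose and 1 fell as deposited (12.2% and 15.4%). The list median was 0.04, or 0.37 above that of all genes. JAK1, the kinase that carries the interferon signal, rose from 2987 ± 376 to 6455 ± 603 (SD, n = 4 each), and the difference was 0.70 centred (SE 0.16, limma adjusted p = 0.00293), 1.12 as deposited (adjusted p = 6.54e-05) and 1.21 after quantile normalization (adjusted p = 5.27e-05). HDAC2, a histone deacetylase, fell by 1.20 centred (adjusted p = 4.00e-04) and by 0.78 as deposited, while its other probe set was called in neither (−0.50 centred). SPI1, PAX5 and BCL6, B cell transcription factors, were called lower in the centred values (−1.08, −0.51 and −0.49) and not as deposited. The second PAX5 probe set was not called (0.17 centred), and of the 2 other BCL6 probe sets 1 was called lower centred (−1.27). Without quiescent sample 4 the centred SPI1 difference was −0.70. Each of these 3 genes lost its call in 6 of 8 fits that left out an array, keeping it only without quiescent sample 2 or 3 for SPI1, cycling sample 1 or 2 for PAX5, and cycling sample 2 or quiescent sample 3 for BCL6. IRF8 (−0.20), IRF4 (0.28) and FOXP1 (0.056) were called under none of the 3 scalings by their brightest probe sets. Of the 6 other FOXP1 probe sets, 1 was called higher centred (0.64, adjusted p = 0.0425) and 2 as deposited. IRF1 had 0.077 centred (not called) and was called higher as deposited (0.49, adjusted p = 0.0269), though not without cycling sample 1 or 4 or quiescent sample 3 or 4. PRDM1, which silences CIITA in plasma cells, did not pass the filter. ATF1 is not analysed here.

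**Figure D5:**
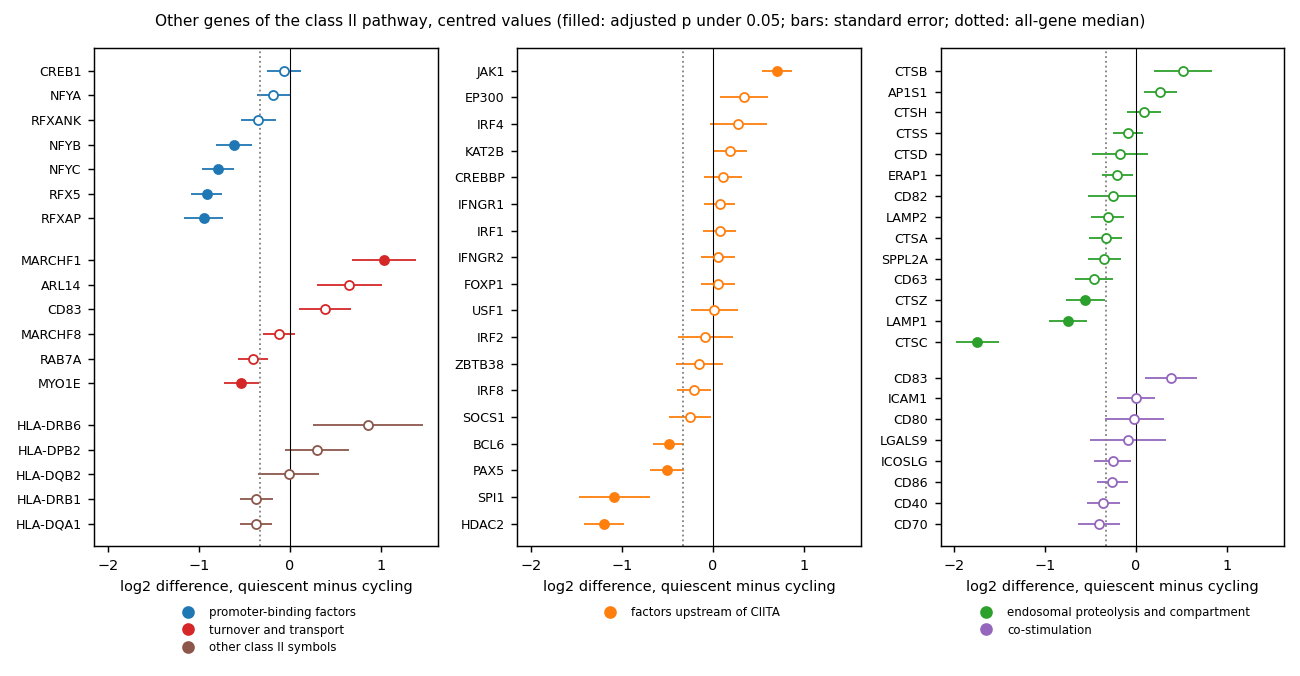
Centred log2 difference (quiescent minus cycling, horizontal axis) of the other class II pathway genes that passed the filter, by list, with standard errors from 4 arrays a group; filled points have a limma adjusted p under 0.05 and the dotted line is the median of all genes tested, −0.33. RFX5, RFXAP, NFYC and NFYB, and CTSC at −1.74, lie on the low side, and MARCHF1 at 1.04 and JAK1 at 0.70 are the filled points on the high side.

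Of the genes of turnover and transport, MARCHF1 rose under all 3 scalings. MARCHF1, a membrane ubiquitin ligase that sends class II molecules and CD86 to lysosomes in B cells and dendritic cells, measured 161, 588, 504 and 461 (cycling) and 785, 1183, 1422 and 926 (quiescent). All quiescent arrays lay above all cycling arrays. The difference was 1.04 centred (SE 0.35, limma adjusted p = 0.0337), 1.45 as deposited (adjusted p = 0.00937) and 1.35 after quantile normalization (adjusted p = 0.00889), and a second probe set rose as well (1.17 centred, adjusted p among all probe sets with limma 0.00684). The remaining MARCHF1 probe set past the filter was not called (0.44). Without cycling sample 1, its lowest array, the centred difference was 0.63 (adjusted p = 0.0424). Centred, it did not pass without quiescent sample 2 or 3 (adjusted p = 0.0886 and 0.0865), and it did not pass when limma ran without trend and robust (adjusted p = 0.0534). As deposited it passed without each array in turn. MARCHF8, its relative, was not called (−0.12), nor was CD83, which opposes MARCHF1 (0.38 centred, and 0.80 as deposited with adjusted p = 0.0383, called on 8 arrays but not without cycling sample 1 or 2 or quiescent sample 3 or 4). MYO1E, a myosin, fell by 0.53 centred, kept that call without cycling sample 2 or quiescent sample 1 or 3 and lost it without each of the other 5 arrays, and did not pass as deposited. In all 1 of 6 tested members rose and 1 fell centred (2.8% and 32.5% of all genes), and 3 and 0 as deposited (12.2% and 15.4%).

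Among 14 tested genes of endosomal proteolysis, 3 fell and 0 rose centred (4 and 0 at an unadjusted limma p under 0.05), against 32.5% and 2.8% of all genes, and 1 fell and 3 rose as deposited, against 15.4% and 12.2%. CTSB, cathepsin B, is named after its values were seen, because its probe sets differ: the brightest was not called centred (0.51, adjusted p = 0.236), while the other 3 past the filter were called higher (0.97 to 1.18), and all 4 were called higher as deposited (0.93 or more). CTSC, a dipeptidyl peptidase that activates other proteases, fell from 4276 ± 1037 to 1657 ± 115 (SD, n = 4 each), a difference of −1.74 centred (SE 0.23, limma adjusted p = 3.62e-05), −1.33 as deposited (adjusted p = 2.08e-04) and −1.25 after quantile normalization (adjusted p = 2.42e-04). Of CTSC's other probe sets 2 were called lower too and 1 was not (−0.15). The brightest probe sets of LAMP1 and CTSZ were called lower in the centred values only (−0.75 and −0.56). Another LAMP1 probe set was called lower both centred (−1.76) and as deposited (−1.35, adjusted p = 0.00805), and the remaining one in neither. CTSZ lost its call with every probe set tested (adjusted p = 0.0532) and without cycling sample 3 or 4 or quiescent sample 2, 3 or 4. CTSS, the protease that cuts CD74 in B cells, measured 3505, 4489, 3958 and 4352 (cycling) and 5122, 4511, 5630.2 and 5105 (quiescent) and was not called centred (−0.089) or as deposited (0.32). After quantile normalization it was (0.43, adjusted p = 0.0191). These CTSS values come from its brightest probe set. A dimmer CTSS probe set was not called centred (0.34) but was called higher as deposited (0.75, limma adjusted p = 0.0021). The remaining CTSS probe set was called in neither setting (0.0099 centred and 0.42 as deposited). CTSL and LGMN did not pass the filter, and IFI30 is not analysed here.

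None of 8 tested co-stimulation genes was called in the centred values with limma (0 also at an unadjusted p under 0.05), against 35.3% of all genes. CD83 was called higher as deposited, as were 12.2% of all genes. CD86 (−0.26) and CD40 (−0.36) changed sign as deposited (0.15 and 0.055) without a call. Of 5 other class II symbols past the filter none was called under any of the 3 scalings (centred, 0 higher and 1 lower at an unadjusted p under 0.05). Of all genes, 35.3% were called centred, 27.7% as deposited and 26.9% after quantile normalization. HLA-DRB1 measured 17222, 17568, 21552 and 20267 (cycling) and 18551, 15329.8, 24052 and 21996 (quiescent), with −0.37 centred and 0.047 as deposited. Without cycling sample 2 it passed as lower when centred (−0.50, adjusted p = 0.0289). HLA-DQA1, the chain that pairs with HLA-DQB1, measured 5331, 6258, 5218 and 5414 (cycling) and 7152, 5998, 5424 and 4586 (quiescent). Its difference was −0.37 centred and 0.045 as deposited, and a dimmer probe set gave 0.38 and 0.79, the latter called (adjusted p = 0.00207).

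The labelled cell type was checked against marker genes. All 7 measured B cell markers, among them MS4A1 and CD79A, passed the filter, with summed intensities of 58690.0 to 68863 on cycling and 57729 to 70881 on quiescent arrays. When centred, 4 of the 7 were called lower with limma (MS4A1 −0.39, CD79A −0.56, PAX5 −0.51 and CD22 −0.52, against 32.5% of all genes), and none was called as deposited (0 also at an unadjusted p under 0.05) or after quantile normalization (1 higher at an unadjusted p under 0.05). T cell markers summed to 419 to 599 and 358 to 557 (2 of 7 past the filter), and NK cell markers to 524 to 574 and 529.6 to 762 (2 of 5). The 9 measured markers of monocytes, macrophages and dendritic cells, other cells rich in class II, summed to 1156 to 1332 on cycling and 514 to 998 on quiescent arrays (3 of 9). CD1C, which B cells can also express, had a mean of 688 on cycling and 237 on quiescent arrays. It was called lower under all 3 scalings (−1.98 centred, −1.56 as deposited and −1.75 after quantile normalization). ITGAM and FCER1A, also past the filter, had higher means on quiescent arrays (120 against 101, and 204 against 124) and were called under no scaling. Below the filter, CD14, LYZ and CSF1R had means between 14.0 and 102, lower on quiescent arrays, while the means of CLEC10A, CD163 and MS4A7 did not fall. Stromal and endothelial markers summed to 611 to 926 and 896 to 1302 (3 of 7). The part of these marker genes in the class II differences was not tested.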

How the data were processed

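Per the submitters' processing notes the authors made the values with MAS5 (version not given in the sources used here), and the deposited intensities are linear, with a mean of 500.1 on each array after 2% was trimmed from either end. Per the labels' protocols, 30 ng of total RNA per sample was amplified and labelled. Intensities under 1 were set to 1, taken to log2 and centred on the array median of 54613 non-control probe sets; array medians spanned 0.66. Symbols came from the platform annotation, which can be old. Genes whose mean lay under the median probe set (an intensity of about 83.3) were left out. limma 3.58.1 in R 4.3.3 (lmFit, eBayes with trend and robust, no covariates) compared 4 quiescent with 4 cycling arrays, Benjamini-Hochberg adjusted over 11678 genes. Within-array ratios were compared by exact permutation. Python 3.11.15 and pandas 2.3.3 made the tables, and the gene test was tried on simulated data. The number of arrays limits the precision.

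Named genes are all 10 members, a fixed set of pathway genes whatever their result, up to 4 called genes of each pathway list in each direction, and the 5 genes most like the members. Members, lists and tests were chosen with earlier results of these data known. Alternatives were the deposited scaling, quantile normalization, adding 32, no filter, a filter at the 75th percentile, a replicate block, plain eBayes, every probe set, and each array left out. No column was left unused.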

Additional observations from a re-analysis of the deposited data

Results flagged for a closer look

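In 88 groups of 4 arrays checked, 3 had an array far from the other 3, where chance flags about 1 in 20. MARCHF1 on cycling sample 1 was low (centred log2 1.03 against 2.56 for the next array, a gap of 0.861 of the group's range). CD40 was low on quiescent sample 2 (4.16 against 4.71, 0.991 of the range). CTSC was low on cycling sample 2 (4.80 against 5.88, 0.831 of the range). None of the 10 class II pathway genes or the 6 ratios had such an array.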

How the results depend on the processing

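The array scaling decided most calls. In place of 327 higher and 3795 lower genes, 1430 and 1802 were called as deposited (44.2% of calls higher in place of 7.93%), 1232 and 1909 after quantile normalization, and 754 and 5901 with every probe set tested. Of the 10 class II pathway genes, 4 were called higher and 0 lower as deposited, and 5 and 0 after quantile normalization. With 32 added, 1 was called higher (HLA-DQB1) and 1 lower (CD74 at −0.48, limma adjusted p = 0.0158). The share of all genes called in that setting is not given here, so these calls have no background beside them. With every probe set tested, 2 probe sets were called lower. Values that turned sign, as deposited and then quantile normalized, were HLA-DRA 0.34 and 0.40 (with 32 added 0.036), HLA-DPB1 0.31 and 0.45 (with 32 added 0.0030), HLA-DPA1 0.12 and 0.18, HLA-DMA 0.20 and 0.32 and HLA-DOB 0.086 and 0.11. HLA-DQB1 (0.69 and 0.73, and 0.38 with 32 added), HLA-DMB (0.59 and 0.71), HLA-DOA (0.54 and 0.60) and, as deposited, CIITA (0.59) came to pass the threshold, and CD74 (−0.18 and −0.11) no longer did. Among the other named genes RFXANK (0.065 and 0.016), NFYA (0.23 and 0.25), CREB1 (0.35 and 0.41, and 0.037 with 32 added), IRF8 (0.21 and 0.29), CTSS (0.32 and 0.43, and 0.015 with 32 added), MARCHF8 (0.29 and 0.22), CD86 (0.15 and 0.24), CD40 (0.055 and 0.11), HLA-DRB1 (0.047 and 0.12), HLA-DQA1 (0.045 and 0.17) and, quantile normalized, BCL6 (0.052) turned sign. With each array left out, differences ran over −0.18 to 0.054 for HLA-DRA, −0.37 to −0.20 for HLA-DPA1, −0.65 to −0.13 for HLA-DOB, −0.20 to 0.035 for CREB1, −0.085 to 0.14 for FOXP1 and −0.0034 to 0.18 for IRF1. In those fits 1 to 2 of the 10 genes were called lower and 0 higher. Of all 11678 genes tested, 2945 to 4536 were called lower and 223 to 358 higher. Centring moves every gene by the same 0.41; beyond that the cause was not tested.

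The labels number the samples alike in both fractions without saying whether a number is a shared culture. Same-numbered deviations correlated at 0.34, 0.20, 0.11 and 0.036 over 11678 genes. For cycling samples 1, 2 and 3 the same number gave the highest correlation, and cycling sample 4 correlated best with quiescent sample 3 (0.14). With the sample number as a replicate block, 465 genes were called higher and 4443 lower, CD74 stayed at −0.59 (limma adjusted p = 0.00101), and no call among the 10 genes changed. In each of the 6 ratios all 4 same-numbered pairs differed in the same direction. The 6 ratios could not pass in the paired permutation, where 16 sign changes allow no p below 0.125.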
